A study of Mus musculus with 6 samples.

Results

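Matrix metalloproteinases and their tissue inhibitors were examined as a set of 10 genes out of 51912 gene records: the protease genes Mmp8, Mmp27, Mmp12, Mmp13, Mmp14, Mmp19 and Mmp9, and the inhibitor genes Timp1, Timp2 and Timp3. Each symbol matched 1 record. The set was taken by gene name, and its genes were chosen by a reading of the hHVS against PCL results in these same libraries. The differences between scaffolds given for them are therefore a description and not an independent test. The cells were bone marrow mononuclear cells of wild-type mice, grown for 10 days on hHVS (n = 3 libraries) or on PCL (n = 3 libraries). PCL usually stands for polycaprolactone, a synthetic polyester, and the labels leave hHVS as an abbreviation. No further allele or agent is named for either group. Whether replicates stem from different cultures or mice is unlabelled. The p-values thus reflect library-to-library spread alone, and that spread may be technical.

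Matrix metalloproteinases are zinc-dependent endopeptidases that cut collagens, elastin and other proteins outside the cell. Most are secreted as inactive precursors, and a few, such as MMP14, sit in the membrane. The tissue inhibitors bind the active site of the protease, usually 1 inhibitor to 1 enzyme. Macrophages are a known source of MMP12 and MMP9, and several of the protease genes lie side by side in a single cluster on mouse chromosome 9.

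Library totals ranged from 72.1 to 83.6 M units of estimated counts, at about 4 units per sequenced fragment, a step inferred from the values. Levels within a gene are given as CPM, counts scaled to library size with TMM factors, and levels between genes as the deposited FPKM, which accounts for transcript length. The macrophage genes Csf1r and Cd68 stood at 2165 ± 103 and 2132 ± 86.3 CPM on PCL and at 2064 ± 39.6 and 2224 ± 43.0 CPM on hHVS (SD, n = 3). Lyz2, lysozyme, was the most abundant of the macrophage markers, at 9682 ± 1134 and 13298 ± 684 CPM (adjusted p = 0.105, edgeR). Of 13 macrophage marker records edgeR called 0, with 4 at an unadjusted p under 0.05 (13.1% of all genes tested), while DESeq2 called 3 (5.09% of all genes), 2 higher and 1 lower. The lower one was Cd14, a receptor for lipopolysaccharide, named after its values were seen, at 175 ± 53.9 CPM on PCL and 86.7 ± 7.92 CPM on hHVS (log2 fold change -1.01 ± 0.20; adjusted p = 0.0847, edgeR). Some granulocyte and lymphocyte genes were detected at low levels: S100a8 was at 3.69 ± 0.673 and 3.26 ± 0.415 CPM, and Cd4, the most abundant of the lymphocyte markers, at 3.00 ± 1.37 and 6.24 ± 0.729 CPM. Cd4 missed the threshold (adjusted p = 0.265, edgeR). Of the 4 lymphocyte markers tested, 3 had positive log2 fold changes and 1 a negative one. The negative one was Cd3g, at 0.145 ± 0.00840 CPM on PCL and 0 on hHVS. Cd3e, not tested, was at 0.123 ± 0.0521 CPM on PCL and 0 on hHVS. In a principal component analysis, PCL replicate 3 and hHVS replicate 2 stood apart from the other libraries on the second component (23.3% of the variance).

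All 10 genes had counts in every library and were expressed enough to be tested. With edgeR's quasi-likelihood test, 2 of the 10 were higher on hHVS at an adjusted p under 0.05, Mmp8 and Mmp27, and 0 were lower. At an unadjusted p under 0.05 there were 5, all higher, a p reached by 13.1% of all genes tested. DESeq2 called 4, all higher, and 5.09% of all genes. Over all 16364 genes tested, 0.862% were called, 0.562% as higher and 0.299% as lower. Because the genes were chosen with these results in view, nothing is read from that difference in share. The median log2 fold change of the 10 was 0.37, against -0.01 over all genes tested, with 7 positive and 3 negative values. PCL and hHVS values were fully separate in 6 of the 10, with hHVS above in 5 and below in 1, and in 20.6% of all genes tested. With PCL replicate 3 and hHVS replicate 2 both left out, a comparison added after the data were seen, Mmp8 and Mmp27 were again the 2 genes called.

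**Figure D1:**
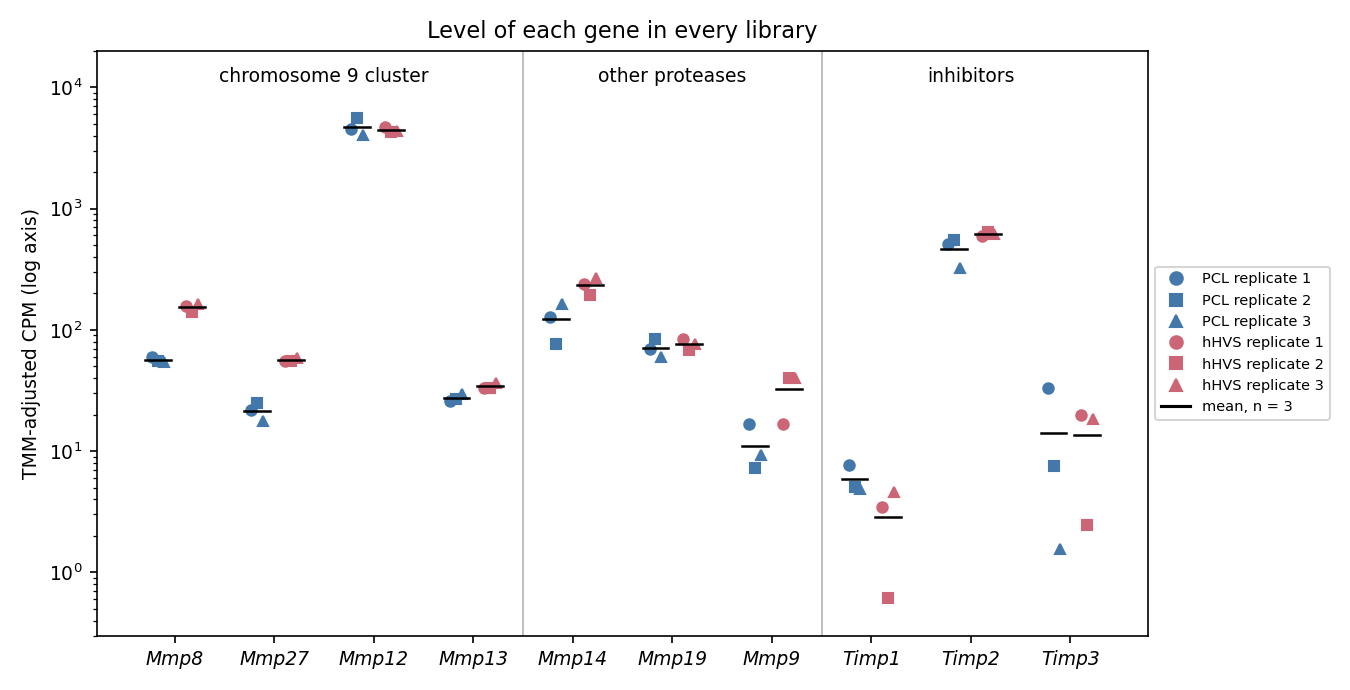
TMM-adjusted CPM on a log axis of each gene in the 3 PCL and 3 hHVS libraries; each point is a library and each black line the mean of 3. The 2 sets of libraries stand clear of each other for Mmp8 and Mmp27, while for Timp3 the PCL libraries alone run from 1.56 to 32.9 CPM.

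The genes of the chromosome 9 cluster are described first. Mmp8 encodes neutrophil collagenase, which cleaves fibrillar collagen. It was at 59.9, 55.5 and 53.8 CPM in PCL replicates 1, 2 and 3 and at 156, 141 and 162 CPM in hHVS replicates 1, 2 and 3. The lowest hHVS library lay well above the highest PCL library, and the highest value within a group was 1.11 times the lowest on PCL and 1.15 times on hHVS. Mmp8 rose 2.71-fold on hHVS (95% interval 2.37 to 3.11; log2 fold change 1.44 ± 0.08, SE; adjusted p = 0.00333, edgeR), and its unadjusted p ranked 1 of 16364. In bulk RNA, more cells that express a gene and more RNA of it per cell cannot be told apart.

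Mmp8 is best known from neutrophils, so their other markers are given beside it. The list of 12 neutrophil markers summed to between 116 and 120 CPM in PCL libraries and between 131 and 141 CPM in hHVS libraries. Most of each sum was Csf3r, and the groups did not overlap. The other 11 markers include Ltf, Camp, Ngp, Mpo, Elane and S100a9. They summed to between 17.1 and 19.9 CPM in PCL libraries and between 18.3 and 20.5 CPM in hHVS libraries. The highest of them in any library was at 4.69 CPM, far below Mmp8. Csf3r, the receptor gene for granulocyte colony-stimulating factor, which monocytes also express, was at 99.4 ± 3.12 CPM on PCL and 116 ± 4.99 CPM on hHVS (log2 fold change 0.22 ± 0.07, adjusted p = 0.238, edgeR). Among the 11 neutrophil markers expressed enough to be tested, which include Csf3r and leave out Ly6g, edgeR, DESeq2 and limma-voom each called 0. In edgeR 1 had an unadjusted p under 0.05 (13.1% of all genes tested). PCL and hHVS values were fully separate in 3 of the 11, all with hHVS above, and in 20.6% of all genes tested. These were Csf3r, Camp (0.759 ± 0.236 and 1.10 ± 0.125 CPM) and Retnlg (0.424 ± 0.0961 and 0.627 ± 0.0599 CPM), named after their values were seen.

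Mmp27 encodes a less studied member of the family, and its gene starts 2910 bases after the end of Mmp8 on the same strand. Its level was 22.0, 24.9 and 17.7 CPM in PCL replicates 1, 2 and 3. In the hHVS libraries it was 55.1, 54.8 and 59.0 CPM, every one above every PCL library. Mmp27 rose 2.62-fold (95% interval 2.12 to 3.23; log2 fold change 1.39 ± 0.13; adjusted p = 0.00899, edgeR).

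The neighbours Mmp8 and Mmp27 stood in a similar proportion to each other on both scaffolds. The ratio of Mmp8 to Mmp27 in FPKM was 2.43 ± 0.376 on PCL and 2.48 ± 0.114 on hHVS (SD, n = 3). The ratio of Mmp8 to Mmp13, at the other end of the expressed part of the cluster, was 2.28 ± 0.263 on PCL and 4.91 ± 0.246 on hHVS. Mmp8 and Mmp27 had no 50-base word of their transcripts in common with another annotated gene, and the annotated spans of these genes do not overlap any other gene.

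Mmp12 encodes macrophage elastase and was by far the most abundant of the set. It stood at 4549, 5626 and 4042 CPM in PCL replicates 1, 2 and 3 and at 4673, 4314 and 4398 CPM in the hHVS libraries. The hHVS values fell inside the PCL range. The log2 fold change was -0.09 ± 0.12 (adjusted p = 0.803, edgeR), and the 95% interval of the fold ran from 0.774 to 1.14, which leaves out a rise of the size seen for Mmp8 or Mmp27. The 3' end of Mmp12 overlaps Mmp1b on the opposite strand by 157 exonic bases, but Mmp1b itself reached at most 0.0523 CPM in any library.

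Mmp13, which encodes collagenase 3, was at 26.0, 27.0 and 29.4 CPM in PCL libraries and at 33.2, 33.2 and 36.7 CPM in hHVS libraries. All hHVS values lay above all PCL values, by a smaller step than for Mmp8. The log2 fold change was 0.32 ± 0.09 (95% interval of the fold 1.09 to 1.44) and missed the threshold (adjusted p = 0.169, edgeR). DESeq2, which called 5.09% of all genes it gave an adjusted p, put Mmp13 past it (adjusted p = 0.0409, DESeq2).

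Other genes of the cluster were close to silent. The 10 Mmp genes of the cluster span 427 kb (GRCm38), from Mmp13 through Mmp12, Mmp1b, Mmp3, Mmp1a, Mmp10, Mmp8, Mmp27 and Mmp20 to Mmp7. Mmp1a, Mmp20 and Mmp7 had 0 counts in all 6 libraries, Mmp3 reached at most 0.353 CPM and Mmp10 at most 0.431 CPM. Of the other records between Mmp8 and Mmp7, AV064505 and AL603630.2 had 0 counts and AL603630.3 reached 0.0131 CPM. The genes that flank the cluster had similar levels on both scaffolds: Dcun1d5 was at 40.9 ± 6.85 and 39.8 ± 2.26 CPM, and Tmem123 at 180 ± 14.5 and 171 ± 7.51 CPM (PCL, then hHVS). Mmp8 (chr9:7558456-7568485) lies 188956 bases beyond Mmp12 (chr9:7344381-7369499) and is followed by Mmp27 (chr9:7571396-7581885), and Mmp13 (chr9:7272514-7283331) lies on its other side.

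**Figure D2:**
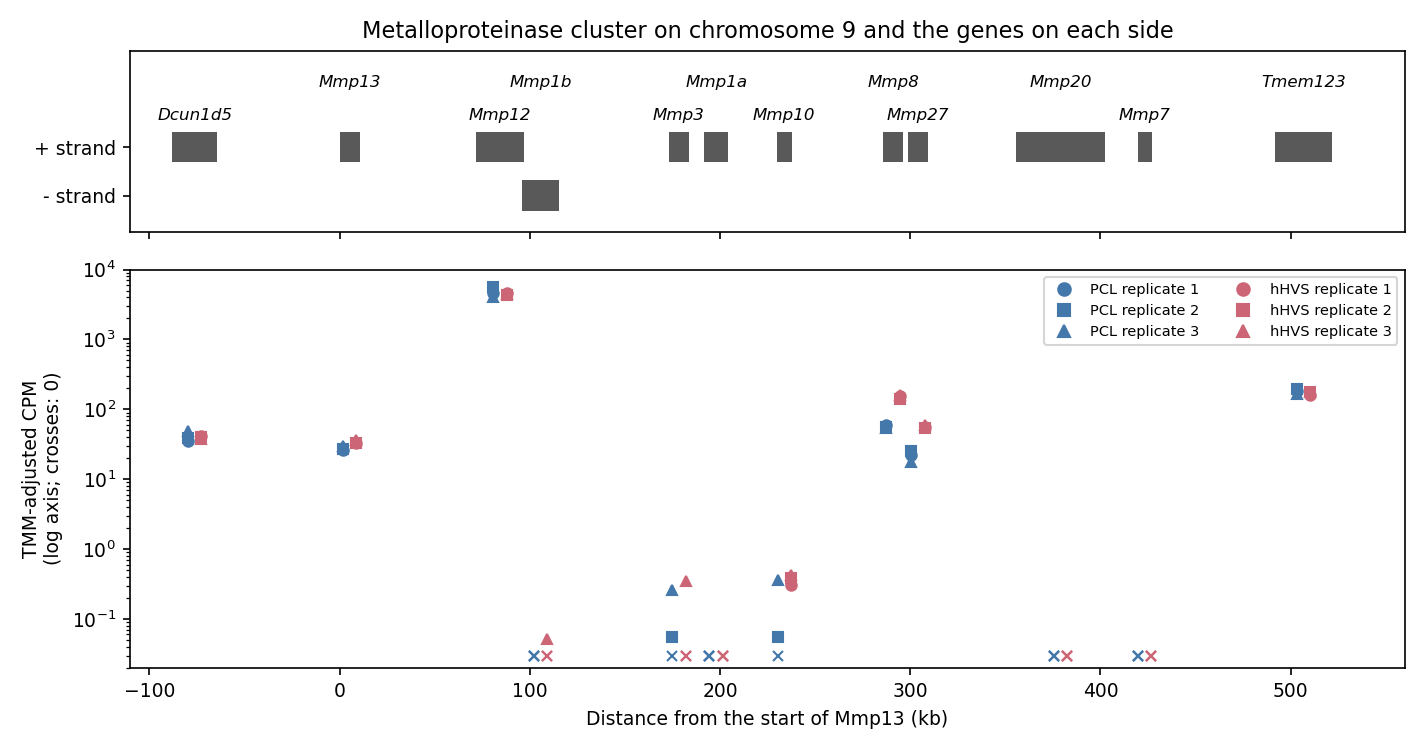
Genes of the chromosome 9 cluster and the nearest protein-coding gene on each side, by distance in kb from the start of Mmp13 (top), with TMM-adjusted CPM per library on a log axis below (points at gene midpoints, crosses for 0). The scaffolds separate at Mmp8 and Mmp27 and, by a smaller step, at Mmp13, and the flanking genes Dcun1d5 and Tmem123 overlap between scaffolds.

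The promoters of the 4 cluster genes are shown because their genes, in a single cluster, had log2 fold changes from -0.09 to 1.44. They are RefSeq windows on GRCm38.p6 from 250 bases before to 50 bases after the annotated start, all on the plus strand, 5' to 3'. Capitals mark TGANTCA, the binding word of AP-1 (Fos and Jun dimers), which was searched on both strands and did not overlap the other words searched.
Mmp8, chr9:7558179-7558478: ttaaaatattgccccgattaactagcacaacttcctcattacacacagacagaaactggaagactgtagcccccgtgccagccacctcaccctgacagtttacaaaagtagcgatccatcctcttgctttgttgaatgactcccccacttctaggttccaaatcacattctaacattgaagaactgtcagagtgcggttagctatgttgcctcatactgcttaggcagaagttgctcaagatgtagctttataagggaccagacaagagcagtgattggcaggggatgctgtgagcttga
Mmp27, chr9:7571146-7571445: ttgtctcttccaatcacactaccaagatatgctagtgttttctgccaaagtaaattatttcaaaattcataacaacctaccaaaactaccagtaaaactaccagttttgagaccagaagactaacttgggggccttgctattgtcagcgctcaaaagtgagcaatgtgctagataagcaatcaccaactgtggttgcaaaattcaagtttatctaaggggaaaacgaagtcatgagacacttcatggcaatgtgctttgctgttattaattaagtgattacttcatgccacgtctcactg
Mmp12, chr9:7347124-7347423: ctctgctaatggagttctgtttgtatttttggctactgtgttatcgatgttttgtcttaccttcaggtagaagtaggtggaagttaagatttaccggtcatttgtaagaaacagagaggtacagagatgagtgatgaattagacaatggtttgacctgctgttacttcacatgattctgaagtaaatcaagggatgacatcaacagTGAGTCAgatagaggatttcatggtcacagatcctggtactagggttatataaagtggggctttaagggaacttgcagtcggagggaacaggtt
Mmp13, chr9:7272264-7272563: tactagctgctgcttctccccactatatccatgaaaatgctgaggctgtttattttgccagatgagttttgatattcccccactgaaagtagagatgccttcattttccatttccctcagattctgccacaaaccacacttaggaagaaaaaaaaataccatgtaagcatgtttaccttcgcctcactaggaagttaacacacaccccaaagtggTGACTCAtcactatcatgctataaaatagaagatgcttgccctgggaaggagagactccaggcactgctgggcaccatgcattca

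Windows were found for 8 of the 10 genes, and TGANTCA occurred in 2 of the 8, Mmp12 and Mmp13, against 7.81% of 32851 such windows over all genes. In Mmp13 it read TGACTCA from base -35 to -29 relative to the start, and in Mmp12 TGAGTCA from base -44 to -38. A second annotated Mmp12 start, upstream of the one shown, had no match to TGANTCA. Neither Mmp8 nor Mmp27 had the word in this window. The word TATAAA was in 3 of the 8 genes, Mmp8 on the reverse strand, Mmp12 and Mmp13, and in 13.6% of all windows. AGGAAG, a word that Ets factors such as PU.1 can bind, was in 6 of the 8 and in 35.4% of all windows, and Mmp27 and Timp2 lacked it. Mmp12 had AGGAAG only at the upstream start, on the reverse strand from base -87 to -82, and not in the window shown. A gene was counted if any of its windows held the word, and Mmp12 has 2 windows, whereas the percentages are of windows. These matches describe letters only.

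Of the proteases encoded elsewhere, Mmp14 and Mmp9 had higher means on hHVS but missed the threshold, and Mmp19 differed little. Mmp14, on chromosome 14, encodes the membrane-bound MT1-MMP, which cleaves collagen and activates the precursor of MMP2. It was at 127, 75.8 and 164 CPM in PCL libraries and at 240, 194 and 269 CPM in hHVS libraries. The groups did not overlap, though the PCL libraries spread 2.17-fold among themselves. Its log2 fold change was 0.94 ± 0.26 (95% interval of the fold 1.25 to 2.93; adjusted p = 0.189, edgeR), and DESeq2 called Mmp14 higher (adjusted p = 0.00386, DESeq2).

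Mmp9, on chromosome 2, encodes gelatinase B. Its values were 16.7, 7.20 and 9.25 CPM in PCL libraries and 16.6, 40.2 and 40.3 CPM in hHVS libraries. The groups met at 1 point: hHVS replicate 1 was at the level of PCL replicate 1, and the other hHVS libraries were far above all PCL libraries. The log2 fold change of 1.55 ± 0.41 was the largest of the set, with a wide 95% interval of the fold, 1.495 to 5.72 (adjusted p = 0.171, edgeR).

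Mmp14 and Mmp9 are also expressed by osteoclasts, whose markers gave a mixed picture. Of 7 osteoclast markers tested, edgeR called 0 higher and 1 lower (0.862% of all genes tested, in either direction). The gene called was Dcstamp, from 41.3 ± 17.7 CPM on PCL to 7.57 ± 1.23 CPM on hHVS (adjusted p = 0.0165, edgeR). Without hHVS replicate 1, 2 or 3 the adjusted p of Dcstamp was 0.0871, 0.0720 and 0.0844 (edgeR), and with both outlying libraries left out it was 0.0605 (edgeR). Acp5, tartrate-resistant acid phosphatase, was at 19.7 ± 3.17 and 28.9 ± 4.69 CPM (adjusted p = 0.199, edgeR). DESeq2 called Acp5 higher and Dcstamp lower (5.09% of all genes, in either direction), and Calcr had 0 counts in all libraries. The summed level of the 9 markers was 777 to 1225 CPM in PCL libraries and 1065 to 1189 CPM in hHVS libraries. Most of that sum was Atp6v0d2, at 663 ± 160 CPM on PCL and 770 ± 60.5 CPM on hHVS, so it says little of the other markers. The part of osteoclasts in the Mmp14 and Mmp9 values was not tested.

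Mmp19, on chromosome 10, encodes a secreted protease that cleaves proteins of the basement membrane. It was at 69.1, 84.6 and 59.4 CPM in PCL libraries and at 83.6, 68.1 and 76.3 CPM in hHVS libraries, with full overlap (log2 fold change 0.10 ± 0.14; 95% interval of the fold 0.852 to 1.34; adjusted p = 0.809, edgeR). Of its transcript words 24.7% also occur in another gene, chiefly Tmem198b, which shares 789 exonic bases on the opposite strand. Tmem198b was at 15.4 ± 2.10 CPM on PCL and 13.9 ± 0.680 CPM on hHVS, and if the counting ignored strand the values of these genes are not separate. The antisense record on the Mmp19 span, Gm47093 in the annotation, had counts in 1 library only, at 0.17 CPM.

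Of the 3 inhibitor genes edgeR, DESeq2 and limma-voom each called 0, and unadjusted edgeR p-values were above 0.05 for all 3. Timp1 and Timp3 varied widely between libraries of the same scaffold. Timp2, on chromosome 11, encodes an inhibitor that also helps MT1-MMP to activate MMP2, and it made up most of the inhibitor RNA. It was at 514, 548 and 324 CPM in PCL libraries and at 589, 645 and 621 CPM in hHVS libraries. The groups did not overlap, and PCL replicate 3 was the lowest library. For Timp2 the log2 fold change was 0.42 ± 0.18 (95% interval of the fold 0.998 to 1.80; adjusted p = 0.384, edgeR). Cep295nl, which lies within the Timp2 span on the same strand without shared exons, was at most at 0.941 CPM.

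Timp1, on the X chromosome, encodes a secreted inhibitor that binds MMP9 and its precursor. Its values were 7.61, 5.01 and 4.86 CPM in PCL libraries and 3.43, 0.619 and 4.56 CPM in hHVS libraries. Every hHVS library was below every PCL library, by little for replicate 3 and by far for replicate 2. The log2 fold change was -1.02 ± 0.61 (95% interval of the fold 0.185 to 1.31; adjusted p = 0.524, edgeR). Timp1 lies within the span of Syn1 on the opposite strand with 0 exonic bases shared, and Syn1 was at 22.2 ± 8.89 CPM on PCL and 19.2 ± 1.66 CPM on hHVS.

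Timp3, on chromosome 10, encodes the inhibitor that stays bound to the matrix and also acts on ADAM17. It ran from 32.9 CPM in PCL replicate 1 through 7.59 in replicate 2 to 1.56 in replicate 3, a 21.1-fold spread within 1 scaffold. The hHVS libraries were at 19.7, 2.48 and 18.3 CPM and lay inside that range. The log2 fold change of -0.06 ± 1.04 had a 95% interval of the fold from 0.177 to 5.22 (adjusted p = 0.988, edgeR), so these libraries do not show whether Timp3 differs. Its exons share 1733 bases with Syn3 on the opposite strand, and Syn3 was at most at 0.231 CPM.

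Stromal marker genes also varied between libraries of a scaffold. The 12 markers, which include Col1a1, Col1a2 and Mmp2, summed to 190, 50.01 and 58.2 CPM in PCL replicates 1, 2 and 3 and to 87.5, 19.3 and 60.5 CPM in hHVS replicates 1, 2 and 3. PCL replicate 1 was highest in this sum, in Timp1 and in Timp3, and hHVS replicate 2 was lowest in the sum and in Timp1. For Timp3, however, the lowest library was PCL replicate 3, and Timp2 was highest in hHVS replicate 2, the library with the lowest stromal sum. Most of the sum in every library came from Col1a1, Col1a2 and Postn, and not every marker followed it. Col3a1 was highest in PCL replicate 3, at 9.56 CPM, and Dcn was higher in hHVS replicate 2, at 0.667 CPM, than in the other hHVS libraries. Of 10 stromal markers tested edgeR called 0, with 3 at an unadjusted p under 0.05, all lower (13.1% of all genes tested, in either direction), and DESeq2 called 2 as lower (5.09% of all genes). Col1a1 was at 30.4 ± 30.0 CPM on PCL and 14.1 ± 9.46 CPM on hHVS (adjusted p = 0.607, edgeR) and Col1a2, the most abundant, at 32.1 ± 31.1 and 16.5 ± 11.1 CPM (adjusted p = 0.664, edgeR). The part of stromal cells in the Timp1 and Timp3 values was not tested.

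**Figure D3:**
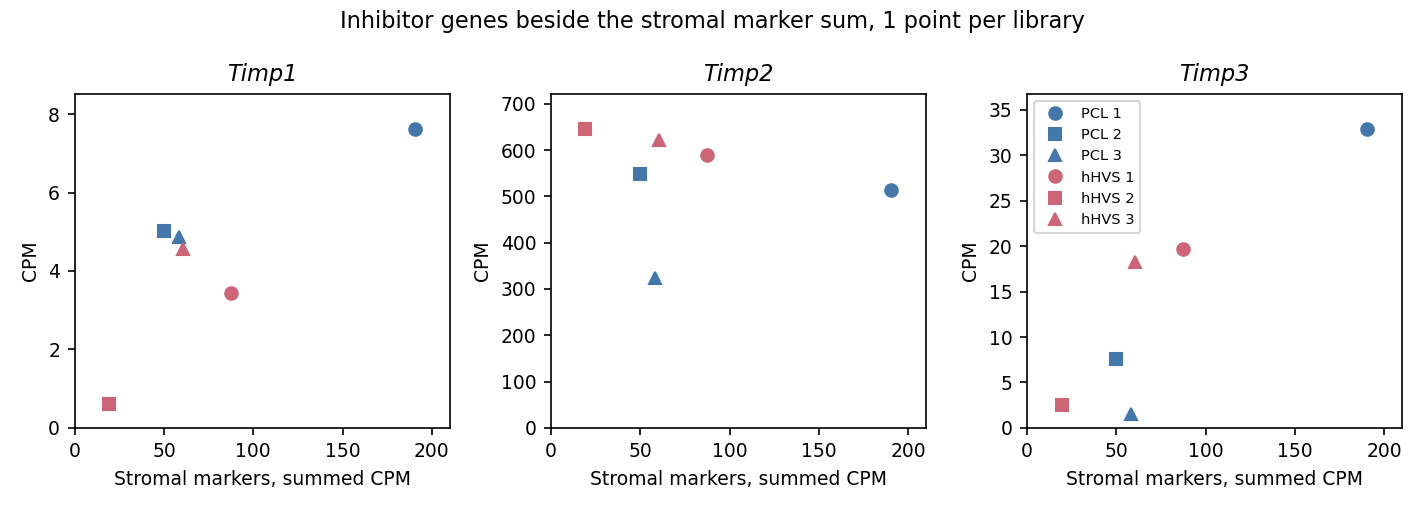
CPM of Timp1, Timp2 and Timp3 against the summed CPM of 12 stromal markers, 1 point per library, both axes linear from 0. Timp1 and Timp3 are highest in PCL replicate 1, where the stromal sum is 190 CPM, and Timp2 is highest in hHVS replicate 2, where it is 19.3 CPM.

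**Figure D4:**
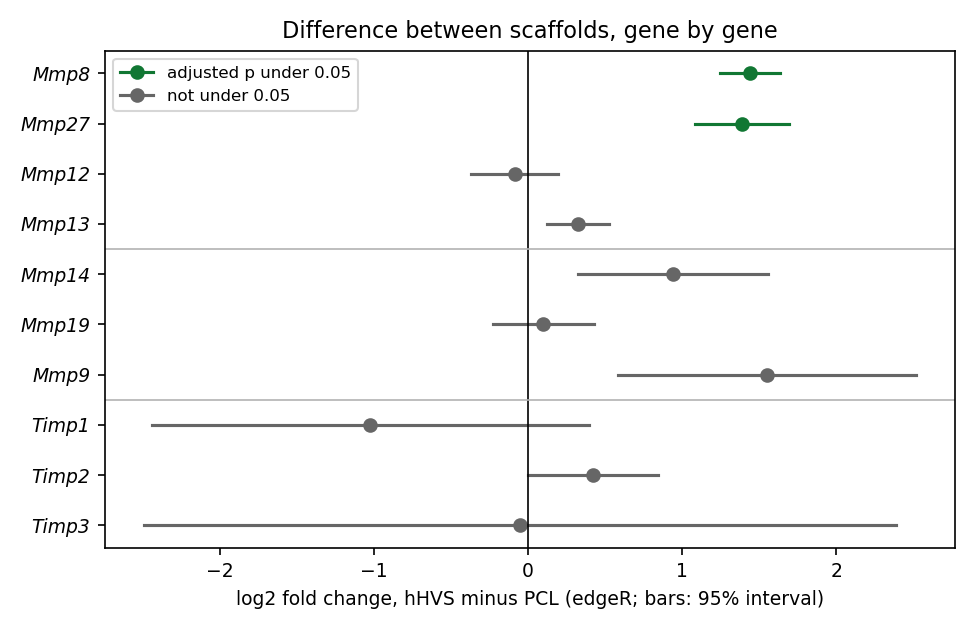
Log2 fold change of each gene, hHVS minus PCL, with its 95% interval from edgeR; green marks an adjusted p under 0.05. The intervals are narrow for Mmp8, Mmp27, Mmp12, Mmp13 and Mmp19 and widest for Timp3, from -2.49 to 2.38.

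Between genes, FPKM set the order of the levels. On PCL, Mmp12 led at 606 ± 90.6 FPKM, followed by Timp2 at 110 ± 27.0 FPKM. Mmp14 (26.5 ± 10.1 FPKM), Mmp8 (21.6 ± 1.27) and Mmp19 (18.6 ± 2.94) came next, and each overlapped its neighbour in that order. Mmp13 (9.53 ± 0.740 FPKM), Mmp27 (9.01 ± 1.36) and Timp1 (6.08 ± 1.64) formed a lower run in which neighbours also overlapped. Mmp9 (2.90 ± 1.34 FPKM) and Timp3 (1.60 ± 1.91) were the lowest and overlapped each other.

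On hHVS the top of the order was the same, with Mmp12 at 544 ± 16.2 FPKM and Timp2 at 140 ± 8.19 FPKM. Mmp8 (55.7 ± 3.503 FPKM) and Mmp14 (48.1 ± 7.46) followed and overlapped each other. Mmp27 (22.5 ± 0.987 FPKM), Mmp19 (19.0 ± 1.71) and Mmp13 (11.4 ± 0.685) were then separate from one another in every library. At the lower end Mmp9 (8.09 ± 3.48 FPKM) overlapped Timp1 (2.83 ± 2.01), and Timp1 overlapped Timp3 (1.45 ± 1.03).

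Summed over the 7 protease genes, the level was 695 ± 83.4 FPKM on PCL and 709 ± 20.4 FPKM on hHVS, with the hHVS libraries inside the PCL range. Mmp12 made up 87.1% ± 2.496 of that sum on PCL and 76.8% ± 1.55 on hHVS. Without Mmp12 the other 6 proteases summed to 88.2 ± 7.41 FPKM on PCL and to 165 ± 13.3 FPKM on hHVS, and the groups did not overlap. The share of Mmp8 in the protease sum was 3.14% ± 0.428 and 7.86% ± 0.346. The 3 inhibitor genes summed to 117 ± 29.0 FPKM on PCL and 144 ± 6.42 FPKM on hHVS, of which Timp2 held 93.5% ± 2.13 and 97.0% ± 2.09 (SD, n = 3 throughout).

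Most other genes of both families were barely expressed. Of the 16 other metalloproteinase genes, 12 had any count, 6 could be tested, and edgeR, DESeq2 and limma-voom each called 0. DESeq2 gave an adjusted p to 5 of the 6. At an unadjusted p under 0.05 edgeR had 1 of the 6. Mmp2, gelatinase A, which MT1-MMP activates, was the only other one with a mean of at least 1 CPM, at 3.41 ± 2.02 CPM on PCL and 3.84 ± 1.59 CPM on hHVS (adjusted p = 0.904, edgeR). Of the 4 other inhibitor genes, A2m and Pzp had 0 counts, Timp4 reached 0.0485 CPM, and Reck, a membrane-anchored inhibitor, was at 0.105 ± 0.181 and 0.418 ± 0.266 CPM (adjusted p = 0.601, edgeR).

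Of 13 tested genes that activate or clear the proteases, edgeR called 0, with 2 at an unadjusted p under 0.05. DESeq2, which gave 12 of them an adjusted p, called 1, Serpine2, a protease inhibitor, named after its values were seen. Lrp1, an endocytic receptor that removes protease and inhibitor complexes, was the most abundant, at 3859 ± 804 CPM on PCL and 4524 ± 239 CPM on hHVS (adjusted p = 0.554, edgeR). Of 13 adamalysin genes, the related proteases with a disintegrin domain, edgeR called 0, with 1 at an unadjusted p under 0.05. DESeq2, which gave 9 of them an adjusted p, called 1, Adam9, also named after its values were seen. Adam8, a protease of myeloid cells, led them at 1550 ± 216 and 1511 ± 56.5 CPM (adjusted p = 0.911, edgeR).

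Of 18 tested genes for factors known to act on metalloproteinase promoters, edgeR called 0, and 5 had an unadjusted p under 0.05 (1 higher, 4 lower), a p reached by 13.1% of all genes tested. DESeq2 called 3 of the 18. The median log2 fold change of the 18 was -0.16. PCL and hHVS values were fully separate in 7 of the 18, with hHVS above in 1 and below in 6, and in 20.6% of all genes tested. Spi1, which encodes PU.1, a factor of the macrophage lineage, was the most abundant at 398 ± 28.8 CPM on PCL and 352 ± 8.71 CPM on hHVS (adjusted p = 0.372, edgeR). Among 16 tested genes for matrix substrates, edgeR called 1 higher and 0 lower (0.862% of all genes tested, in either direction). At an unadjusted p under 0.05 it had 1 higher and 4 lower (13.1% of all genes tested). DESeq2 called 1 higher and 4 lower (5.09% of all genes, in either direction), the lower ones Col3a1, Col4a1, Col4a2 and Dcn, named after their values were seen. The gene called higher was Spp1, osteopontin, a secreted adhesive protein, from 882 ± 146 CPM on PCL to 1733 ± 274 CPM on hHVS (log2 fold change 0.97 ± 0.15; adjusted p = 0.0437, edgeR). That call was lost, in edgeR, without any 1 library other than PCL replicate 3 (adjusted p from 0.0675 to 0.167), with library totals (adjusted p = 0.0609), without a filter (adjusted p = 0.0803), with the replicate block (adjusted p = 0.159) and with both outlying libraries left out (adjusted p = 0.0624). It was also lost with limma on log2(FPKM + 0.1) and log2(FPKM + 1) (adjusted p = 0.0835 and 0.0842). The other 15 included 14 with negative log2 fold changes, and the median of the 16 was -0.97. Some of them spread widely within a scaffold: on PCL, Col1a1 ran from 12.5 to 65.1 CPM and Col1a2 from 10.5 to 67.7 CPM.

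Markers of other cells were also measured. Of the osteoblast and chondrocyte markers 3 were tested, of the endothelial and lymphocyte markers 4 each, and of the dendritic cell markers 3, and edgeR called 0 of them. DESeq2 also called 0, but gave an adjusted p to only 2 of the 3 osteoblast and chondrocyte markers and 2 of the 4 lymphocyte markers. By limma-voom 1 lymphocyte gene, Cd3g, was called lower. Cd3g had 11, 10 and 12 units in PCL libraries, no more than the floor of 12 units (3 fragments), and 0 on hHVS. At an unadjusted p under 0.05 edgeR had 1 endothelial and 2 lymphocyte genes. Acan and Dmp1, of cartilage and bone, had 0 counts, and Runx2 led its list at 18.4 ± 4.37 and 15.5 ± 2.72 CPM (PCL, then hHVS). Vwf, the most abundant of the endothelial markers, was at 84.1 ± 31.0 and 56.1 ± 7.38 CPM. The other endothelial markers were far lower. Kdr was at 9.07 ± 0.518 and 6.82 ± 0.211 CPM, and Pecam1 at 1.98 ± 0.392 and 1.56 ± 0.0550 CPM. Cdh5 was at 0.669 ± 0.867 and 0.310 ± 0.0722 CPM, and Emcn and Tek reached at most 0.361 and 0.258 CPM. Itgax, of dendritic cells and some macrophages, was at 461 ± 117 and 475 ± 11.8 CPM.

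The pattern of Mmp8 across libraries was compared with 8486 protein-coding genes of at least 10 mean CPM, by Pearson's r of log2 CPM over the 6 libraries. The libraries fall into the scaffold groups, so a high r mostly restates that difference and is a description. The closest genes were Sec14l1 (r = 0.999), Gnptab (0.997) and Gbe1 (0.997), with folds of 1.34, 1.70 and 1.47 against 2.71 for Mmp8. Mmp27 ranked 26th (r = 0.981) and Mmp13 278th (0.909), while Mmp12 had an r of -0.23.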

How the data were processed

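Polyadenylated RNA was sequenced in stranded-kit libraries, per the labels' protocols. The submitters' processing notes name FastQC, MultiQC, STAR and featureCounts and the build mm10. Their versions, the tool behind each table and the use of strand in counting were not given in the sources used here. Per gene, the authors deposited estimated counts as whole numbers and a table of FPKM. Among values from 1 to 9, the counts peaked at 1 (6904 cells), 4 (6544 cells) and 8 (3210 cells), with 1483 cells at 5. About 4 units per fragment was inferred from these steps. The estimated counts were used as deposited. They had been taken for raw counts when the tests were chosen.

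Genes were filtered with filterByExpr (minimum count 10) and hHVS was compared with PCL using TMM factors in edgeR 4.0.16 under R 4.3.3 (glmQLFit, glmQLFTest), Benjamini-Hochberg adjusted over all 16364 genes, threshold 0.05. SE is the log2 fold change divided by the root of F. DESeq2 1.42.0 and limma 3.58.1 were alternatives. The fit was tested on simulated data. Groups come from the sample titles. The 6 libraries were distinct. A floor of 3 fragments is 0.144 to 0.166 CPM per library, for counting error only.

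Members and gene lists were chosen with earlier results of these data known. Named genes outside the set are, per list, up to 3 called with at least 1 CPM and the largest change, or else the most abundant, other family genes with at least 1 CPM, genes that flank the cluster or overlap a member, fixed markers (Csf1r, Cd68, S100a8, Col1a1, Acp5), and the 3 closest to Mmp8. Other list genes are named to say what a list holds, which genes are at or near 0, or which DESeq2 or limma-voom called. Some are named because they lead a sum, depart from a sum, stand below a named gene or separate the groups. Those called, and these, were picked after their values were seen. Coordinates and overlaps are from GENCODE M21 on GRCm38, the assembly of mm10 (99.6% of identifiers matched), and promoters from RefSeq on GRCm38.p6.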

Additional observations from a re-analysis of the deposited data

How the results depend on the processing

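Mmp8 (log2 fold change 1.33 to 1.495) and Mmp27 (1.24 to 1.51) stayed past the threshold under all 17 alternatives, with adjusted p up to 0.0305 and 0.0484. The number of the 10 genes called was 2 whichever library was left out and 4 with DESeq2, which added Mmp13 and Mmp14. Over all genes, where 141 were called, the count was 76 without a filter on low counts, 767 with DESeq2, 88 and 83 with limma on log2(FPKM + 0.1) and log2(FPKM + 1), 66 with PCL replicate 3 and hHVS replicate 2 both left out (added after the data were seen), and 32 (without hHVS replicate 1) to 154 (without PCL replicate 3) with 1 library left out; it was 55, 45, 63 and 33 without PCL replicate 1, PCL replicate 2, hHVS replicate 2 and hHVS replicate 3. With library totals the split of higher and lower genes was 71 and 74, against 92 and 49. With the replicate number as a block 36 genes were called, Mmp8 and Mmp27 among them. Deviations of same-numbered libraries from their group means had r = 0.117, -0.0095 and -0.0607. Over all pairings of PCL with hHVS libraries r ran from -0.157 to 0.153. With 3 libraries a group such values cannot decide whether the numbers are pairs, and the labels do not state a pairing. The sign of Timp3 turned with limma-voom (0.36), with log2(FPKM + 0.1) (0.25) and log2(FPKM + 1) (0.062), with the replicate block (0.14), and without PCL replicate 1 (1.56) or without hHVS replicate 2 (0.44); over the removal of single libraries it ranged from -0.59 to 1.56. Mmp12 turned to 0.055 without PCL replicate 2 (range -0.19 to 0.055), and Mmp19 to -0.016 without PCL replicate 3 (range -0.016 to 0.24). None of these turned values passed the threshold, and the cause was not tested. With 3 libraries a group, the intervals of Mmp9, Timp1 and Timp3 span at least several-fold, so smaller differences in them are not resolved.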
